A study of Mus musculus with 4 samples.

Results

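The guanylate-binding proteins Gbp2, Gbp3, Gbp4, Gbp5, Gbp6 and Gbp7 and the immunity-related GTPases Iigp1, Igtp, Irgm1 and Irgm2 were followed through the nuclei of injured mouse cortex. These 10 genes, of 33696 gene features counted, were chosen by their UMI counts (unique molecular identifiers, 1 per captured RNA molecule) in these same matrices, so their levels and ratios below are descriptions and carry no test. All 10 matched their symbols in the table of gene names. The experiment was designed to remove the chemokine CXCL12 from fibroblasts, as part of a study of how fibroblasts and immune cells interact in the injured brain. The library labelled control (below, the control-labelled library) came from wild-type mice, and that labelled Cxcl12-cKO (below, the cKO-labelled library) from Col1a2(creER); Cxcl12(flox) mice, in which Cre is driven by a collagen promoter active in fibroblasts and is switched on by tamoxifen. All mice were adult, had received a photothrombotic (PT) injury of the cortex and were collected 21 days post injury (dpi). In each genotype 1 male and 1 female mouse were pooled, and lesion and surrounding parenchyma were dissected apart and tagged. The tagged nuclei were mixed as 75% lesion and 25% parenchyma, and DAPI+ nuclei were then sorted for 3′ sequencing. With 1 library per genotype there is no test between genotypes, and every interval below covers counting error only.

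Guanylate-binding proteins (GBPs) are large GTPases of the dynamin superfamily that interferon induces strongly, and they coat intracellular bacteria and parasite vacuoles and help inflammasomes assemble. Immunity-related GTPases (IRGs) work at the same membranes: Iigp1 is an effector that loads onto vacuoles, whereas Igtp, Irgm1 and Irgm2 are regulators that hold the effectors inactive on the cell's own membranes. Interferon-γ (IFNγ), secreted mainly by T cells and natural killer cells, switches on both families, in part through the transcription factor IRF1, and type I interferons induce many of them as well.

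The DNA in front of these genes is shown because the factors of interferon signalling are known to bind short elements there. RefSeq promoter windows (build GRCm38.p6, 250 bases before to 50 bases after the annotated start, 300 bases in all) were found for 7 of the 10 members, in 8 entries because Gbp3 has 2 starts. A pair of GAAA half-sites 2 bases apart, the core of the interferon-stimulated response element, was searched on both strands, as was TTCNNNGAA, the core of the gamma-activated site, which reads the same on both strands. At least 1 such pair stood in front of 7 of these 7 genes, in 7 of the 8 entries, whereas 3.44% of all 32851 promoter windows held one. TTCNNNGAA was found in 4 of the 8 entries, against 8.30% of all windows. Capitals mark the matches in the stretches below, which run 5′ to 3′ along each gene's strand.

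Gbp2 (chr3:142620589-142620628, plus strand): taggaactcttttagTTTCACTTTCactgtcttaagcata
Gbp3 (chr3:142559984-142560029, plus strand): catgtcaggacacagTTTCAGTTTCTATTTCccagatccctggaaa
Gbp7 (chr3:142530215-142530307, plus strand): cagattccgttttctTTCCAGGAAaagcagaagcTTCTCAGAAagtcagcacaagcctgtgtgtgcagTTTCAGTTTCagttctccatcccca
Igtp (chr11:58199496-58199546, plus strand): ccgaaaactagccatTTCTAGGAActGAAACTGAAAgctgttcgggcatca
Irgm2 (chr11:58214887-58214937, plus strand): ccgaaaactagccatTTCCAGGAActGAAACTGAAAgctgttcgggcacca
Irgm1 (chr11:48871420-48871465, minus strand): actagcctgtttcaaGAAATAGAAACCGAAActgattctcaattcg

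In Gbp3 and Irgm1, 2 GAAA pairs overlapped in each window. The Gbp2 match began 59 bases upstream of the start and the Gbp7 match 53 bases upstream. Gbp7 also carried TTCNNNGAA matches 87 and 106 bases upstream. Igtp and Irgm2, both on chromosome 11, shared 49 of the 51 bases shown, with the gamma-activated core shortly before the interferon-stimulated core. In Gbp5 the GAAA pair lay farther out, 165 bases upstream, between TTCNNNGAA matches 52 and 245 bases upstream. A match describes these letters only and is not evidence that a factor was bound in these nuclei.

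Across all matrices 21743 nuclei passed the filters on UMIs, genes and mitochondrial share, with medians of 2962 and 2975 UMIs per nucleus in the lesion and 15915 and 16648 in the parenchyma of the control-labelled and the cKO-labelled library, in that order. Clusters were called "X-like" from marker genes, and a cluster that met no name is kept as cluster 11. Nuclei were assigned to the female or the male mouse by Xist and Y-linked UMIs. The libraries shared 47 cell barcodes, which were kept. Cxcl12 itself went against the label: in lesional fibroblast-like nuclei it was at 106 CPM (UMIs of a gene per 1000000 UMIs of the class) in the control-labelled library and at 216 CPM in the cKO-labelled library, a log2 ratio of 1.03 (95% counting interval 0.94 to 1.11). The sources used here do not give the part of the gene that the floxed allele removes, and 3′ tags outside it would check nothing, so directions below are between libraries as labelled.

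The members were counted mostly in the lesion. Summed over all nuclei, the 10 members stood at 239 CPM (234 to 244, exact 95% Poisson interval, 8004 UMIs) in the lesion of the control-labelled library and at 5.97 CPM (5.29 to 6.70, 284 UMIs) in its parenchyma. The cKO-labelled library held 192 CPM (187 to 197, 5931 UMIs) in the lesion and 6.76 CPM (6.05 to 7.54, 325 UMIs) in the parenchyma. The parenchyma was made mostly of neurons, so these sums follow the mix of cell classes as well as the level in each.

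Most of the lesional member UMIs came from fibroblasts. Fibroblast-like nuclei held 66.3% of them in the control-labelled library and 67.7% in the cKO-labelled library, myeloid-like nuclei 14.6% and 13.6%, and astrocyte-like nuclei 10.3% and 13.1%. In CPM the order of lesional classes, with both libraries summed, was different. Endothelial-like nuclei were highest at 477 CPM (433 to 524), T-cell-like nuclei followed at 436 CPM (373 to 506), and the pair did not differ beyond their intervals. Fibroblast-like (319 CPM, 313 to 326), astrocyte-like (282 CPM, 269 to 296) and myeloid-like nuclei (168 CPM, 161 to 176) came next, each apart from its neighbour when the libraries were summed. In the cKO-labelled library alone fibroblast-like (270 CPM, 262 to 279) and astrocyte-like nuclei (259 CPM, 241 to 277) overlapped. Ependymal-like nuclei (144 CPM, 90.3 to 218, 31 nuclei) were not apart from myeloid-like nuclei, nor from oligodendrocyte-like (114 CPM, 96.6 to 134) and osteoblast-like nuclei (102 CPM, 84.3 to 122). Inhibitory-neuron-like (14.5 CPM), excitatory-neuron-like (9.30 CPM) and cluster 11 nuclei (7.47 CPM) formed the low end.

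**Figure D1:**
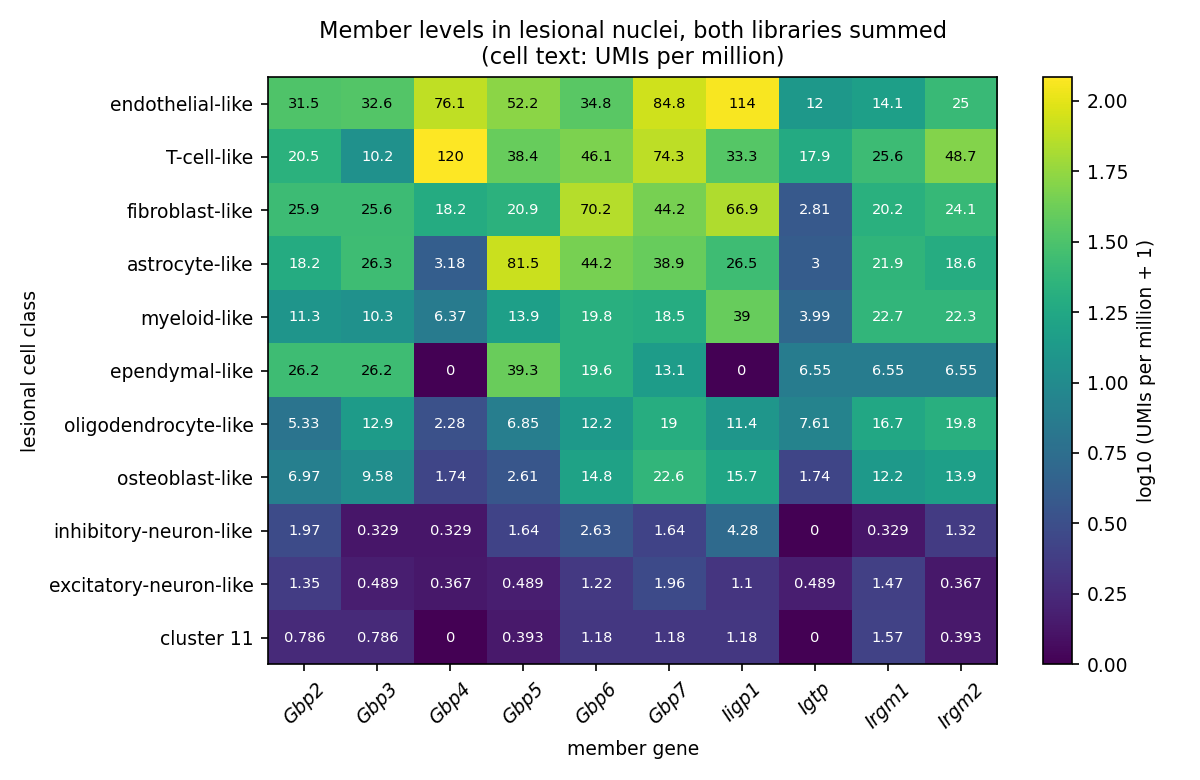
Level of each member (columns) in each lesional cell class (rows) with both libraries summed, printed as CPM and coloured by its log10 after adding 1. Read down a column, since levels of different genes are not corrected for length; Gbp4 is highest in T-cell-like nuclei at 120 CPM and Gbp5 in astrocyte-like nuclei at 81.5.

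Single members had class patterns of their own, as the heat map of levels by class shows. Gbp4 stood at 120 CPM (88.5 to 160, 47 UMIs) in T-cell-like and 76.1 CPM (59.3 to 96.1, 70 UMIs) in endothelial-like nuclei, at 18.2 CPM in fibroblast-like nuclei and at 3.18 CPM (1.89 to 5.03, 18 UMIs) in astrocyte-like nuclei. Gbp5, which promotes NLRP3 inflammasome assembly, showed another order, with astrocyte-like nuclei on top at 81.5 CPM (74.2 to 89.3, 461 UMIs), then endothelial-like nuclei at 52.2 CPM (38.5 to 69.2), fibroblast-like nuclei at 20.9 CPM (19.3 to 22.6) and myeloid-like nuclei at 13.9 CPM (11.9 to 16.2). With the libraries summed, astrocyte-like nuclei thus led for Gbp5. In the control-labelled library alone they were at 65.1 CPM (55.8 to 75.6) and not apart from endothelial-like nuclei at 59.8 CPM (41.6 to 83.2), and its male mouse was at 19.9 CPM beside 20.8 CPM in its fibroblast-like nuclei. Astrocyte-like nuclei stood below the T-cell-like, endothelial-like, fibroblast-like and myeloid-like nuclei for Gbp4. Gbp6 was highest in fibroblast-like nuclei at 70.2 CPM (67.2 to 73.3, 2051 UMIs), with T-cell-like nuclei at 46.1 CPM (27.3 to 72.9) not apart from it. Gbp6 has near-identical relatives in the genome, so its counts are uncertain where reads were shared.

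The IRG genes differed among themselves as well. The effector Iigp1 was highest in endothelial-like nuclei, at 114 CPM (93.3 to 138, 105 UMIs), followed by fibroblast-like nuclei at 66.9 CPM (64.0 to 70.0, 1956 UMIs) and myeloid-like nuclei at 39.0 CPM (35.5 to 42.7, 459 UMIs). This order differed by library, since myeloid-like Iigp1 was at 79.9 CPM (72.1 to 88.3) beside 85.0 CPM (80.3 to 89.9) in fibroblast-like nuclei in the control-labelled library, and at 10.9 CPM beside 15.7 CPM in astrocyte-like nuclei in the cKO-labelled library. Irgm1, a regulator, was nearly level over the leading classes, with 25.6 CPM (12.3 to 47.1) in T-cell-like, 22.7 CPM (20.03 to 25.6) in myeloid-like, 21.9 CPM (18.2 to 26.1) in astrocyte-like and 20.2 CPM (18.6 to 21.9) in fibroblast-like nuclei. Irgm2 was at 48.7 CPM (29.3 to 76.0, 19 UMIs) in T-cell-like nuclei and between 18.6 and 25.0 CPM in endothelial-like, fibroblast-like, myeloid-like, oligodendrocyte-like and astrocyte-like nuclei. Igtp was sparse, with 214 UMIs in all nuclei, and no class was apart from the next within its top ranks.

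Within a class the member UMIs were spread unevenly over the nuclei. In lesional fibroblast-like nuclei 46.0% (44.5 to 47.5%, exact binomial) of the control-labelled library and 45.5% (44.0 to 47.0%) of the cKO-labelled library held a member UMI, and these shares were 18.6% and 16.3% after thinning each nucleus to 800 UMIs, which left out 13 and 17 shallower nuclei. Myeloid-like nuclei had 26.2% (24.2 to 28.3%) and 22.5% (20.8 to 24.2%), or 12.1% and 7.22% thinned, with 17 and 32 nuclei left out. Lesional excitatory-neuron-like nuclei were at 10.3% and 9.32% (0.792% and 0.621% thinned). They were picked as a low class from these same counts, so they are no independent background. Their median depths of 14527 and 13645 UMIs exceeded the 3061 and 3106 of fibroblast-like and the 2174 and 2375 of myeloid-like nuclei. In the control-labelled library the tenth of myeloid-like nuclei with the most member UMIs held 74.3% of them, and up to 9 members were seen in 1 nucleus. A single fibroblast-like nucleus of the control-labelled library, from its male mouse, held 111 member UMIs. In that library 96 of 4188 fibroblast-like nuclei (2.29%) held 5 or more different members, against 52 of 4124 (1.26%) in the cKO-labelled library. After thinning these shares were 0.263% and 0.0730%.

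The lesion could be compared with the parenchyma within each library, since both regions came from the same mice. Astrocyte-like nuclei, whose lesional counterparts border the scar, held 309 CPM of summed members in the lesion and 107 CPM in the parenchyma of the control-labelled library (821 and 31 UMIs), a log2 ratio of 1.51 (1.02 to 2.10). In the cKO-labelled library they held 259 and 62.4 CPM (776 and 19 UMIs), a log2 ratio of 2.01 (1.40 to 2.79). At least 1.5-fold higher levels in the lesion were found for 7 of 8 members with 20 UMIs or more in the control-labelled library, where 29.9% of all genes were, and for 8 of 8 in the cKO-labelled library, against 30.3%. The minimum was set on both regions together, so members passed it mainly through the lesion, and nothing is read from these counts. Left out on few UMIs were Gbp4 (1.67 in the control-labelled and -0.13 in the cKO-labelled library) and Igtp (-0.76 and -0.13). Gbp6 was at 53.5 and 10.3 CPM in the control-labelled library (log2 ratio 2.15, 0.80 to 4.67), and Gbp5 at 96.0 and 13.1 CPM in the other (2.70, 1.497 to 4.75). Fibroblast markers in these astrocyte-like nuclei were also higher in the lesion (885 against 465 CPM, and 425 against 322 CPM), and their part in the result was not tested.

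Fibroblast-like nuclei were also higher in the lesion, at 369 CPM against 125 CPM in the control-labelled library (log2 ratio 1.54, 1.03 to 2.15) and 270 against 113 CPM in the cKO-labelled library (1.23, 0.69 to 1.91), although only 51 and 50 parenchymal fibroblast-like nuclei were available. Their fibroblast markers were lower too, at 1229 and 1210 CPM in the parenchyma beside 4325 and 3852 CPM in the lesion. Per 100 fibroblast marker UMIs the parenchymal nuclei held 10.2 (6.64 to 15.05) and 9.30 (5.85 to 14.1) member UMIs and the lesional nuclei 8.54 and 7.02, so on that scale the members were not higher in the lesion. Myeloid-like nuclei showed no such step: 244 against 187 CPM (0.34, -0.32 to 1.20) and 116 against 121 CPM (-0.13, -0.88 to 0.89), with 32 and 46 parenchymal nuclei. A regional difference of the sum was not detectable at this depth, while single members differed in both directions. Iigp1 of the control-labelled library had 383 UMIs in the lesion (79.9 CPM) and 0 in the parenchyma, which allows up to 43.1 CPM there. In the cKO-labelled library Gbp7 was at 15.3 CPM in the lesion and 60.7 CPM in the parenchyma (107 and 6 UMIs, -2.09, -3.16 to -0.51).

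Endothelial-like nuclei, which had enough parenchymal nuclei only in the cKO-labelled library, went the other way. The sum was at 364 CPM in the lesion and 677 CPM in the parenchyma (122 and 38 UMIs in 101 and 25 nuclei, -0.91, -1.43 to -0.33). Gbp5 was at 38.8 and 285 CPM (13 and 16 UMIs, -2.87, -4.05 to -1.73).

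Neurons held few member UMIs in either region. Excitatory-neuron-like nuclei of the control-labelled library were at 9.66 CPM in the lesion and 4.09 CPM in the parenchyma (57 and 132 UMIs, log2 ratio 1.248, 0.77 to 1.70), and those of the cKO-labelled library at 8.36 and 4.75 CPM (19 and 152 UMIs, 0.85, 0.04 to 1.51). Of 3 members with enough UMIs, 2 were at least 1.5-fold higher in the lesion of the first library, beside 6.10% of all genes, and 1 of 2 in the second, beside 9.78%. These neurons also carried more fibroblast marker UMIs in the lesion (138 against 32.1 CPM, and 101 against 30.9 CPM). Per 100 fibroblast marker UMIs, lesional excitatory-neuron-like nuclei held 7.02 (5.27 to 9.19) and 8.26 (4.88 to 13.2) member UMIs, beside 8.54 (8.30 to 8.79) and 7.02 (6.79 to 7.24) in lesional fibroblast-like nuclei themselves and 12.7 (10.5 to 15.3) and 15.3 (12.8 to 18.2) in parenchymal excitatory-neuron-like nuclei. Lesional myeloid-like nuclei held 22.2 (20.8 to 23.7) and 17.3 (16.0 to 18.6), and lesional astrocyte-like nuclei 34.9 (32.2 to 37.8) and 60.8 (55.5 to 66.5). These values hold for the mice of a library together. By mouse the lesional fibroblast-like nuclei had no single ratio. They held 13.5 in the control female and 5.09 in the control male mouse. In the Cxcl12-cKO female and male mice they held 10.2 and 4.997. The ratios of the other classes therefore have no fixed fibroblast value to be set against, and nothing is read from their order. The source of the member UMIs was not tested. With the barcode filter set within each matrix the log2 ratio of the control-labelled library was 0.58 (-0.37 to 1.32), and in the male mouse alone it was -0.19 (-1.46 to 0.76).

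**Figure D2:**
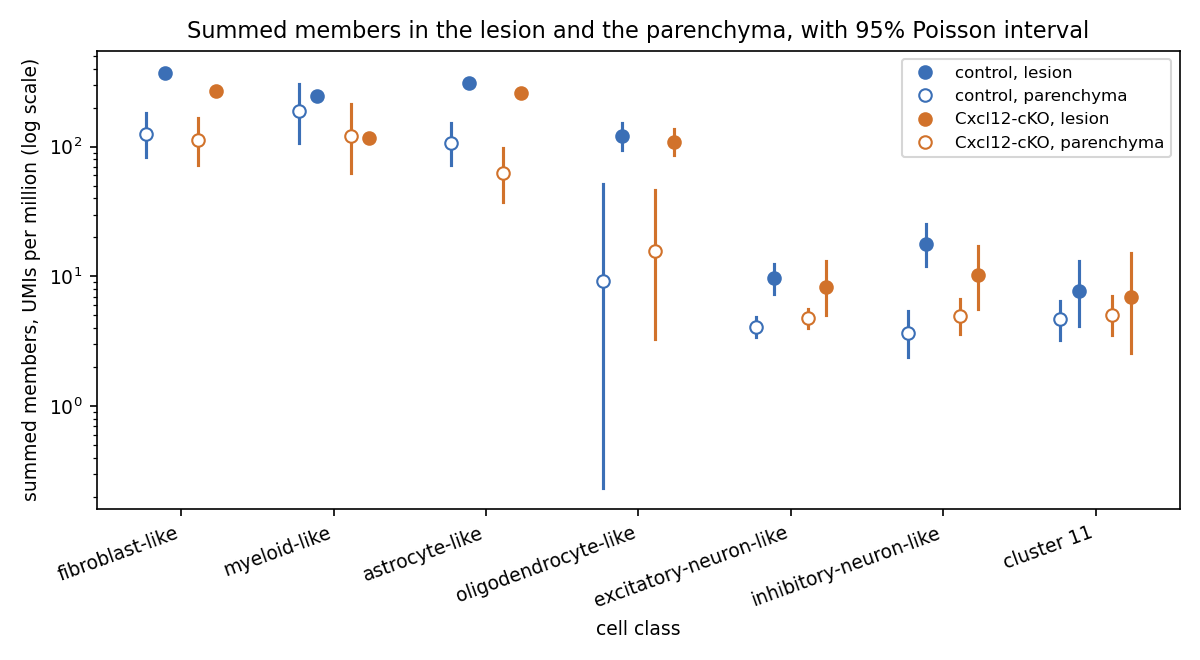
Summed members in CPM (log scale) by cell class, with lesion filled, parenchyma open and both libraries by colour, and with exact 95% Poisson intervals. Astrocyte-like and fibroblast-like nuclei are higher in the lesion of both libraries, while the lesional and parenchymal intervals of myeloid-like nuclei overlap.

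In myeloid-like nuclei, the microglia and macrophages of the lesion, the members were lower in the cKO-labelled library, and the size of the difference rested largely on the control female mouse. The summed members were at 244 CPM (1171 UMIs in 1795 nuclei) in the control-labelled library and 116 CPM (809 UMIs in 2302 nuclei) in the cKO-labelled library, a log2 ratio of -1.07 (-1.21 to -0.94). Of the 10 members, 7 were at least 1.5-fold lower, where 5.98% of the 14762 genes with 20 UMIs or more were. All 10 had a log2 ratio below 0, where 53.2% of all genes did, and their median was -0.86 beside -0.02 over all genes. Since the members were chosen on these counts, nothing is read from their number. Between the female mice alone the log2 ratio of the sum was -1.83 and between the male mice 0.10, and it was -0.38 without the control female mouse.

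Iigp1 differed most. It was at 79.9 CPM (72.1 to 88.3, 383 UMIs) in the control-labelled library and at 10.9 CPM (8.58 to 13.6, 76 UMIs) in the cKO-labelled library, a log2 ratio of -2.87 (-3.25 to -2.52), and the intervals lay far apart. The share of myeloid-like nuclei with an Iigp1 UMI was 7.91% and 2.52%, or 3.99% and 1.01% thinned. Gbp4 was at 10.0 and 3.87 CPM (-1.36, -2.11 to -0.66), and Gbp2, which coats parasite vacuoles, at 16.1 and 8.02 CPM (-0.998, -1.52 to -0.49). The regulators Irgm2 (31.5 and 16.0 CPM, -0.97, -1.34 to -0.61) and Igtp (5.63 and 2.86 CPM, -0.97, -1.89 to -0.09) were both lower, whereas the remaining regulator, Irgm1, was at 26.7 and 19.9 CPM (-0.42, -0.78 to -0.06). Gbp5 (18.4 and 10.9 CPM, -0.75) and Gbp7 (23.1 and 15.3 CPM, -0.59) were past 1.5-fold as well. The ratios of Gbp6 (-0.26, -0.64 to 0.13) and Gbp3 (-0.19, -0.72 to 0.36) were within counting error. Without Iigp1 the summed log2 ratio of the other 9 was -0.65 (-0.79 to -0.50).

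**Figure D3:**
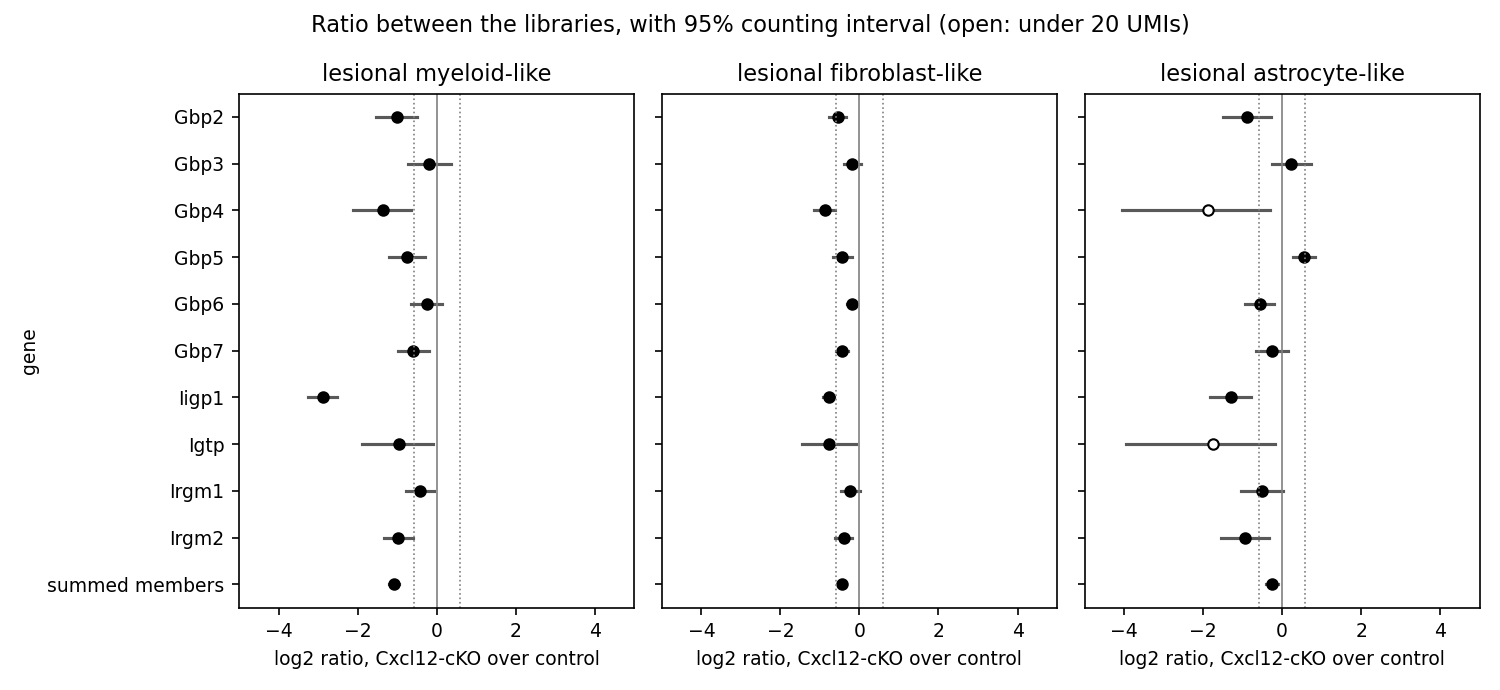
Log2 ratio of the cKO-labelled library over the control-labelled library for each member and their sum in 3 lesional classes, with 95% counting intervals, dotted lines at 1.5-fold and open points where both libraries together held under 20 UMIs. Iigp1 in myeloid-like nuclei lies farthest from 0 at -2.87, and Gbp5 is the member above 0 beyond counting error in astrocyte-like nuclei at 0.56.

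Other interferon-responsive genes were mixed in the same nuclei. Of the other GBP and IRG family genes, 17 were found and 14 had enough UMIs, of which 6 were at least 1.5-fold lower and 1 higher, with a median log2 ratio of -0.44. Among them, the IRG gene Gm4951 was at 115 and 47.0 CPM (-1.29, -1.49 to -1.09), the IRG gene 9930111J21Rik2 at 104 and 97.8 CPM (-0.09, -0.26 to 0.08) and Gvin1, a very large interferon-inducible GTPase, at 24.4 and 20.2 CPM (-0.27, -0.64 to 0.09). The family's other genes thus held both lower and near-level members, and Tgtp2 (-1.95), Gbp10 (-1.89) and Gm4841 (-1.76), named after their values were seen and on 22 to 34 UMIs each, had lower ratios than every member except Iigp1.

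Along the IFNγ pathway, from ligand to transcription factors, 4 of 14 genes with enough UMIs were at least 1.5-fold lower and none higher, with a median of -0.36. Ifng itself was almost unseen: T-cell-like nuclei held 1 UMI in each library (114 and 99 nuclei), myeloid-like and oligodendrocyte-like nuclei 1 each in the control-labelled library, and lesional fibroblast-like nuclei 0, with upper bounds of 0.257 and 0.248 CPM. Jak1, the kinase at the receptor, was level at 274 and 282 CPM (0.04, -0.06 to 0.14). Irf1, a transcription factor induced by interferon, was at 60.9 and 39.5 CPM (-0.62, -0.87 to -0.38). Irf8, a myeloid lineage factor, was at 254 and 229 CPM (-0.15, -0.26 to -0.05).

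Of 20 genes commonly induced by type I interferon, 8 were at least 1.5-fold lower and 1 higher, with a median of -0.48. The 3 most counted were the RNA sensor Ifih1 at 91.5 and 76.6 CPM (-0.26, -0.44 to -0.07), Oasl2 at 55.3 and 55.7 CPM (0.01, -0.22 to 0.24) and Oas2 at 39.2 and 38.4 CPM (-0.03, -0.30 to 0.25). The most counted genes of this list were thus close to level while its median was below 0.

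With the mice of a library together, the sum was lower in several myeloid subclusters. Border-associated macrophage-like nuclei (subcluster 0, 143 and 103 nuclei) were the highest, at 713 CPM (622 to 814) and 280 CPM (214 to 359), a log2 ratio of -1.34. Their Iigp1 was at 324 CPM (100 UMIs) in the control-labelled and 73.4 CPM (16 UMIs) in the cKO-labelled library, and 90 of the control UMIs came from the female mouse (535 CPM) and 2 from the male mouse (26.2 CPM). Homeostatic microglia-like nuclei (subcluster 2) were at 177 and 80.9 CPM (-1.13, -1.40 to -0.87). Subcluster 1, with 4 of 8 markers of disease- and scar-associated myeloid cells (DAM/SAM), was at 161 and 77.7 CPM (-1.05, -1.35 to -0.76). By mean fold of the markers the neutrophil list was closer to it, and none of its leading genes was a DAM/SAM marker, so that name is weak. Iigp1 was the member with the lowest log2 ratio in subclusters 2 and 1, at -2.90 and -3.70. Monocyte/dendritic-like nuclei (182 and 147 CPM, 42 and 68 nuclei) and dividing nuclei (129 and 45.1 CPM, 21 and 47 nuclei) held 9 to 22 member UMIs per library.

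By mouse the subclusters did not share 1 pattern. In subcluster 2 the male mice were at 99.2 CPM (75.5 to 128) in the control-labelled and 29.7 CPM (16.98 to 48.3) in the cKO-labelled library, and the female mice at 232 and 84.9 CPM, so the level was lower in both sexes. In subcluster 1 the male mice were level at 60.8 (41.6 to 85.9) and 56.8 CPM (40.4 to 77.6), and the female mice at 334 and 81.9 CPM. In subcluster 3 the male mice went the other way, at 90.3 CPM (58.4 to 133, 25 UMIs in 60 nuclei) and 247 CPM (198 to 304, 89 UMIs in 63 nuclei). The female mice were at 459 and 200.1 CPM there. Over all subclusters, 1 myeloid-like nucleus of the Cxcl12-cKO male mouse held 34 of that mouse's 169 member UMIs. In subcluster 0 the female mice were at 999.4 and 281 CPM and the control male mouse at 288 CPM.

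Subcluster 3 stayed unnamed because genes such as Bmp6, Foxd1 and Ism1, the last also a leading gene of a fibroblast-like cluster, led it, and 28.6% of its nuclei held UMIs of both sexes, against 5.88% to 10.9% in the other subclusters. Its members stood at 322 and 207 CPM, and without it the class ratio was -1.30 (-1.47 to -1.13) with 8 members at least 1.5-fold lower. Fibroblast markers in the whole myeloid-like class, all 7 of 7 detected, summed to 1099 and 670 CPM and so were higher where the members were. Neutrophil markers summed to 654 and 292 CPM, with Ly6g at 0 in both libraries, and T cell markers to 35.7 and 19.3 CPM, and the part of these lists in the result was not tested.

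**Figure D4:**
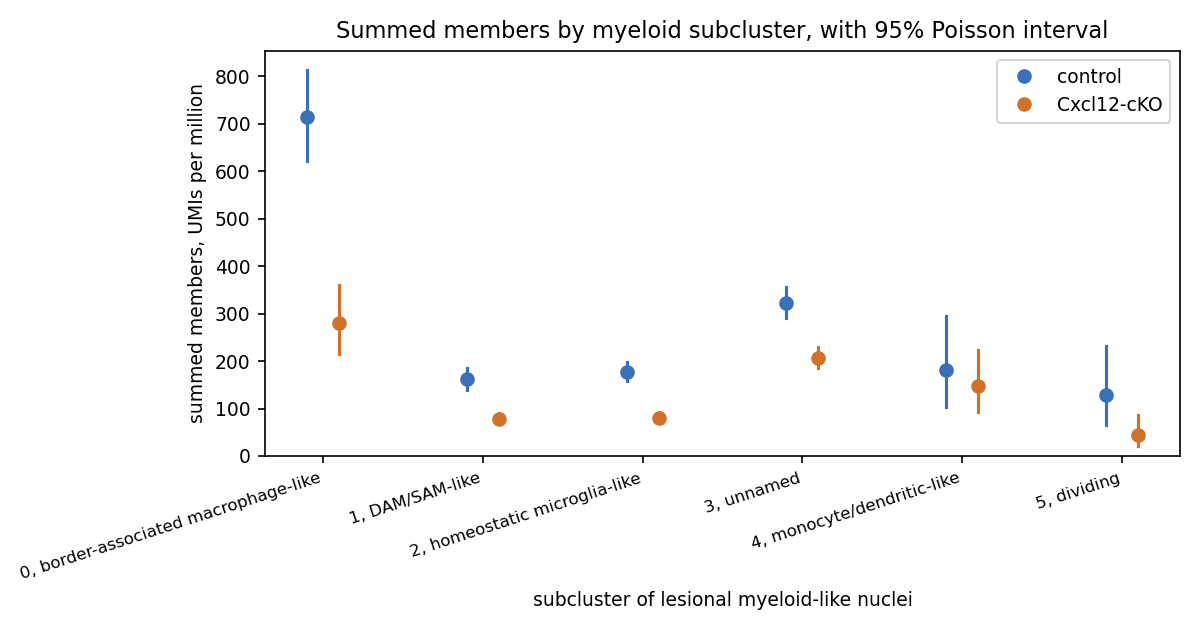
Summed members in CPM in the 6 subclusters of lesional myeloid-like nuclei, by library, with exact 95% Poisson intervals. Border-associated macrophage-like nuclei are highest at 713 and 280, and the intervals of the libraries do not overlap in subclusters 0 to 3.

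Fibroblasts, the cells in which Cxcl12 was targeted and which held most member UMIs, had a log2 ratio closer to 0. The summed members were at 369 CPM (5305 UMIs in 4188 nuclei) in the control-labelled library and 270 CPM (4016 UMIs in 4124 nuclei) in the cKO-labelled library, a log2 ratio of -0.45 (-0.51 to -0.39). At least 1.5-fold lower were 3 of 10 members, beside 4.05% of 16647 genes, and the members' median was -0.44 beside 0.01 over all genes. All 10 were below 0, where 48.7% of all genes were. Gbp4 (23.7 and 12.9 CPM, -0.88, -1.14 to -0.62), Iigp1 (85.0 and 49.5 CPM, -0.78, -0.91 to -0.65) and Igtp (3.55 and 2.09 CPM, -0.76, -1.46 to -0.10) were the 3. Gbp6, at 74.8 and 65.8 CPM (-0.19, -0.31 to -0.06), was nearer to level, and the ratios of Gbp3 (-0.18, -0.39 to 0.03) and Irgm1 (-0.23, -0.47 to 0.00) were within counting error. Without the control female mouse the ratio of the sum was 0.14 (0.06 to 0.22), on the other side of 0. In that comparison the cKO-labelled library still held its female mouse, so the libraries differed in sex. Between the male mice alone the levels were 232 CPM in the control-labelled and 205 CPM in the cKO-labelled library.

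The fibroblast subclusters were not alike. Subcluster 0, led by Matn4, was level at 210 and 218 CPM (0.06, -0.07 to 0.18), while subcluster 1, led by Ccn3, was at 462 and 298 CPM (-0.63, -0.75 to -0.52). Subclusters 2, led by Gm30613 (436 and 317 CPM, -0.46), and 3, led by Igfbp3 (418 and 314 CPM, -0.41), lay between. Iigp1 in subcluster 1 had a log2 ratio of -1.30, the lowest of any member there. The mice divided these values. In subcluster 1 the female mice were at 689 and 403 CPM and the male mice at 213 (192 to 236) and 267 CPM (241 to 295), in the opposite direction. In subcluster 0 the female mice were at 333 and 318 CPM and the male mice at 128 (113 to 144) and 150 CPM (136 to 165). In subcluster 2 the female mice were at 479 and 438 CPM and the male mice at 501 and 182 CPM, and in subcluster 3 the values were 544 and 378 CPM for the female and 299 and 254 CPM for the male mice. The male mice were thus lower in the cKO-labelled library in subclusters 2 and 3 and higher in subcluster 1, with overlapping intervals in subclusters 0 and 3.

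Of the other interferon lists in fibroblast-like nuclei, 3 of 13 other family genes, 0 of 14 IFNγ pathway genes and 4 of 19 type I genes were at least 1.5-fold lower and 1 of each list higher, with medians of -0.38, -0.06 and -0.11. Irf1 stood at 37.7 and 37.6 CPM (0.00, -0.18 to 0.17).

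Astrocyte-like nuclei divided the members, and the direction of their sum differed by sex (-1.39 between the female mice, 1.06 between the male mice). The sum was at 309 and 259 CPM (821 and 776 UMIs, log2 ratio -0.26, -0.40 to -0.11), and 3 of 8 members with enough UMIs were at least 1.5-fold lower, beside 7.71% of all genes. Iigp1 was at 38.8 and 15.7 CPM (-1.30, -1.84 to -0.80), Irgm2 at 24.8 and 12.99 CPM (-0.93) and Gbp2 at 24.1 and 12.99 CPM (-0.88). Gbp5, by contrast, was at 65.1 and 96.0 CPM (0.56, 0.28 to 0.84). Fibroblast markers in these nuclei summed to 885 and 425 CPM, and their part was not tested.

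Endothelial-like nuclei were at 542 and 364 CPM (317 and 122 UMIs, -0.57, -0.89 to -0.27), with 3 of 8 members at least 1.5-fold lower beside 11.8% of all genes. These were Irgm2 (-0.94), Gbp3 (-0.84) and Gbp5 (-0.59), each with a counting interval that included 0. Fibroblast markers in endothelial-like nuclei were at 2159 and 1359 CPM, and per 100 of their UMIs the members were at 25.1 (22.1 to 28.4) and 26.8 (21.8 to 32.8). T-cell-like nuclei were at 505 and 348 CPM (110 and 60 UMIs, -0.53, -1.01 to -0.07), with fibroblast markers at 1358 and 690 CPM and 37.2 (29.6 to 46.4) and 50.4 (36.3 to 69.3) member UMIs per 100 of those. The part of these markers was not tested. Parenchymal excitatory-neuron-like nuclei were at 4.09 and 4.75 CPM (132 and 152 UMIs, 0.21, -0.13 to 0.56), which was within counting error. Oligodendrocyte-like (120 and 109 CPM, -0.15) and lesional excitatory-neuron-like nuclei (-0.18) were also within it.

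The mice of a library differed from each other, which limits every comparison above. In lesional myeloid-like nuclei the summed members were at 385 CPM (736 UMIs, 698 nuclei) in the female and 91.0 CPM (140 UMIs, 539 nuclei) in the male mouse of the control-labelled library, and at 108 CPM (351 UMIs) and 97.49 CPM (169 UMIs) in those of the cKO-labelled library. The control female mouse was high and the other 3 mice lay between 91.0 and 108 CPM, and within the control-labelled library the log2 ratio of female over male was 2.07 (1.82 to 2.35). The log2 ratio was therefore -1.83 (-2.02 to -1.65) between the female mice and 0.10 (-0.23 to 0.43) between the male mice. The value of the male mice depended on the unnamed subcluster 3. It held 89 of the 169 member UMIs of the Cxcl12-cKO male mouse and 25 of the 140 of the control male mouse. The ratio between the male mice without that subcluster was not computed. Iigp1 was at 145 CPM in the control female mouse and at 11.7, 10.1 and 10.4 CPM in the control male, Cxcl12-cKO female and Cxcl12-cKO male mice. In the female mice 10 of 10 members were at least 1.5-fold lower, beside 11.4% of all genes, and in the male mice 0 of 8 with enough UMIs, beside 7.17%. In the male mice 3 of these 8 were at least 1.5-fold higher, beside 7.05% of all genes. The other lists had medians of -0.72, -0.63 and -0.66 between the female and 0.07, -0.07 and -0.38 between the male mice, for other family, IFNγ pathway and type I genes.

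Fibroblast-like nuclei as a whole kept the direction in both sexes but not the size, and the subclusters of the male mice did not all share it. The female mice were at 545 and 364 CPM (-0.58, -0.66 to -0.50) and the male mice at 232 and 205 CPM (-0.18, -0.29 to -0.07), so each female mouse was above each male mouse whatever its genotype. In the control male mouse 1 nucleus held 111 of its 1332 member UMIs. The ratio between the male mice without that nucleus was not computed, so its direction is uncertain. At least 1.5-fold lower were 6 of 10 members between the female mice, beside 5.71% of all genes, and 0 of 10 between the male mice, beside 5.01%. 

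In astrocyte-like nuclei the sexes went opposite ways, with 417 and 159 CPM in the female mice (-1.39, -1.63 to -1.15) and 162 and 340 CPM in the male mice (1.06, 0.76 to 1.38). Gbp5 was at 84.0 and 45.6 CPM in the female and 19.9 and 123 CPM in the male mice. Fibroblast markers in myeloid-like nuclei were also highest in the control female mouse, at 1178 CPM beside 723 CPM in the control male, 446 CPM in the Cxcl12-cKO female and 782 CPM in the Cxcl12-cKO male mouse. T cell markers in these nuclei had the same mouse on top, at 56.5 CPM beside 19.5, 15.7 and 7.50 CPM in the control male, Cxcl12-cKO female and Cxcl12-cKO male mice. Neutrophil markers did not, at 285 and 268 CPM in the control female and male and 329 and 253 CPM in the Cxcl12-cKO female and male mice. Of the 3138 neutrophil marker UMIs of the control-labelled library, 546 and 412 lay in nuclei assigned to its female and male mouse. The part of these lists was not tested. Genotype, sex and the single mouse cannot be told apart with 1 mouse of each kind.

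**Figure D5:**
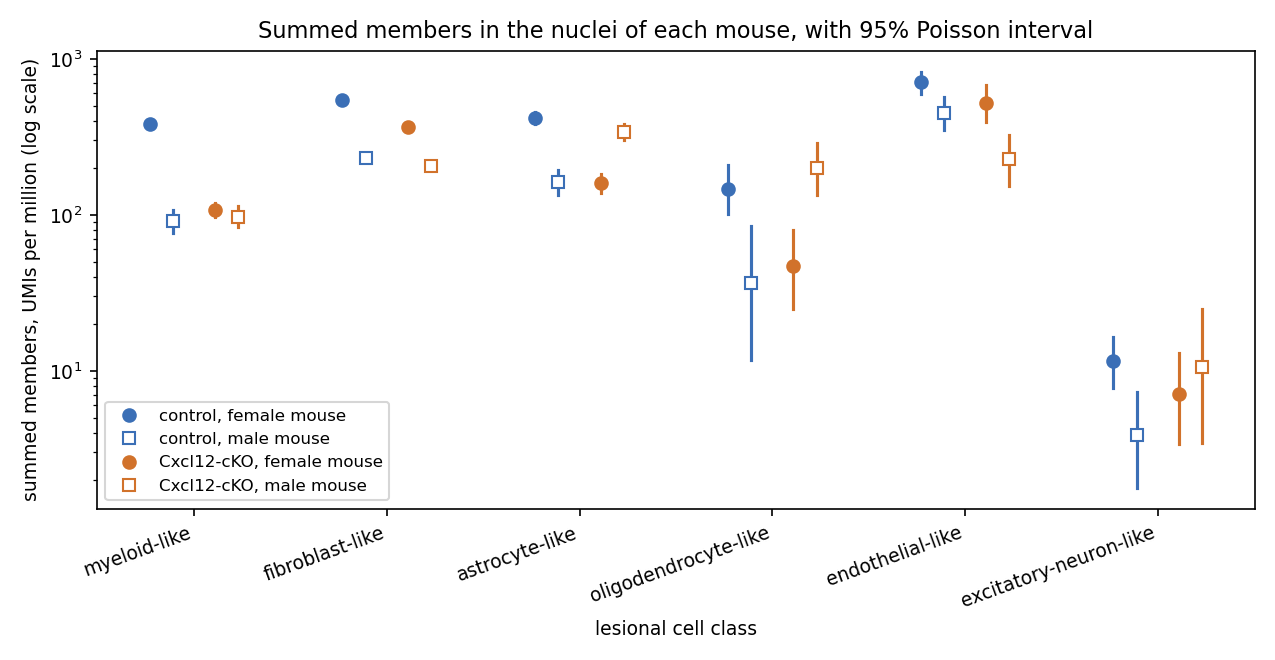
Summed members in CPM (log scale) in lesional nuclei assigned to each of the 4 mice, by cell class, with exact 95% Poisson intervals. In myeloid-like nuclei the control female mouse stands at 385 and the other 3 mice between 91.0 and 108, and in astrocyte-like nuclei the female mice order one way and the male mice the other.

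The genes whose level moved most like that of the summed members were sought over 33 lesional sums of class, library and mouse, from 10 classes, among 13863 genes. Plpp3, a lipid phosphatase, had the highest Pearson correlation of log2(CPM + 1), at 0.937. The next were Rnf213 (0.925), Trim12a (0.924), Arhgap31 (0.921), Parp9 (0.921), Trim12c (0.919), Elf1 (0.918), Parp12 (0.913), Eif2ak2 (0.909) and Apobec3 (0.905). Rnf213, Trim12a, Trim12c, Parp9, Parp12, Eif2ak2 and Apobec3 are known as interferon-inducible or antiviral genes. The sums share libraries, mice and classes and differ in depth, so the correlation describes a shared pattern over classes and carries no p.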

How the data were processed

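Nuclei from PT lesions and surrounding parenchyma of 2 genotypes were measured by 10x 3′ single-nucleus RNA-seq. Per the labels, the authors ran Cell Ranger 9.0.0 against GRCm39, and the deposited matrices hold whole UMI counts per gene and barcode for each library and region, not normalized. The tag libraries gave the region split and were not used otherwise. The 12 tag features of each matrix were left out of UMI totals.

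Barcodes within the 2.5 to 97.5 percentiles of UMIs (758 to 36243) and genes (585 to 6417) and with up to 8.74% mitochondrial UMIs were kept, 21743 of 23489. Nuclei were clustered with scanpy 1.11.5 (3000 variable genes, 30 components, 20 neighbours, Leiden resolution 0.25), leaving out member, interferon, sex-linked and mitochondrial genes. A cluster was named when at least 3 class markers stood out. No doublet caller was run, and removal of nuclei with UMIs of both sexes was tried instead. For each class the UMIs of a gene were added up and divided by the total of that class (CPM), with exact 95% Poisson intervals. Log2 ratios had 0.5 UMI added to each sum and an exact conditional binomial interval. The code for the log2 ratio intervals was run on sums simulated as Poisson counts. Those sums lack the uneven spread of UMIs over nuclei, so they do not check the intervals for these data. Shares had exact binomial intervals and were repeated after thinning to 800 UMIs. A ratio at or past 1.5-fold with at least 20 UMIs over both sums was counted.

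The members, gene lists and class markers were chosen with earlier results of these data known. All 10 members were named. From each other list the 3 genes with the most UMIs in lesional myeloid-like nuclei were named, plus Ifng and Irf1 (another gene the rule names is not reported here), and the 10 genes most correlated with the summed members over sums with at least 30 nuclei, among genes with at least 200 lesional UMIs. Fibroblast subclusters are called by the gene that leads them. Alternatives covered clustering resolution, barcode filters, class assignment, weighting, scaling, mouse, UMI minimum and fold. Mice, a subcluster and Iigp1 left out were added after seeing the data. Promoter windows came from RefSeq (GRCm38.p6), another build than that of the counts.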

Additional observations from a re-analysis of the deposited data

Results flagged for a closer look

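The log2 ratio of the summed members, Cxcl12-cKO over control, went opposite ways in the female and the male mice in 2 lesional classes, with counting intervals on either side of 0. In astrocyte-like nuclei the female mice gave -1.39 and the male mice 1.06. In oligodendrocyte-like nuclei the female mice gave -1.62 (147 and 46.7 CPM) and the male mice 2.35 (36.3 and 199.7 CPM), on 73 and 89 female and 47 and 39 male nuclei. The difference between the sexes was not tested, since each sex and genotype is 1 mouse.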

How the results depend on the processing

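No paired analysis was possible because each genotype is 1 library. A ratio was called the same when it lay within the counting interval of the main value, and a count when it was within 1.5-fold. Only a ratio whose main interval left out 0 could be called turned. Of the values that answer a comparison, 79 were the same, 26 moved and 6 turned, and of the values of single members 257, 34 and 9. The myeloid log2 ratio of summed members (-1.07) was -1.83 in female and 0.10 in male mice, -1.28 with classes from each nucleus's own markers, -1.30 without subcluster 3 and -0.65 without Iigp1. Without the control female mouse it was -0.38 and without the control male -1.45. The fibroblast ratio (-0.45) was -0.37 with nuclei weighted alike, -0.58 in female and -0.18 in male mice, 0.14 and -0.77 without the control female or male, and -0.75 and -0.22 without the Cxcl12-cKO female or male. The astrocyte ratio (-0.26) was -1.39 and 1.06 by sex, 0.21 and -0.51 without the control female or male, and 0.10 and -0.46 without the Cxcl12-cKO female or male. The myeloid count of members at least 1.5-fold lower (7) was 0 in male mice, 2 at 2-fold and 2 without the control female. The fibroblast count (3) was 6 in female and 0 in male mice, 7 at a lower fold, 0 at 2-fold, 0 and 6 without the control female or male, and 7 without the Cxcl12-cKO female. The lesion over parenchyma ratio of control excitatory-neuron-like nuclei (1.248) was 0.58 with barcodes filtered within each matrix and -0.19 in male mice. Turned in male mice were Gbp2 (0.68), Gbp5 (0.62) and Gbp7 (0.52) in myeloid-like, Igtp (0.15) and Irgm2 (0.37) in fibroblast-like, and Gbp2 (0.088), Gbp6 (0.63) and Iigp1 (0.47) in astrocyte-like nuclei. In female mice Gbp5 in astrocyte-like nuclei turned to -0.87. The cause was not tested. Mice, subcluster 3 and Iigp1 were left out after seeing the data, and nuclei assigned to no mouse stayed in when a mouse was left out. The libraries then also differed in sex.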
